A study of Mus musculus with 10 samples.

Results

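The genes of the skeletal muscle sarcomere and of muscle fibre types were followed in the synovium, the lining of the joint, of 10 arthritic mice. The set held 44 genes, listed by their role in muscle: 14 of fast fibres, 8 of slow fibres, 2 developmental myosins, 12 of the sarcomere and cytoskeleton of all fibres, 5 of energy metabolism and 3 of excitation-contraction coupling. All 44 had a probe set (a group of short probes for 1 transcript) that names that gene alone, out of 18128 genes with such a probe set. For a gene with several, the probe set with the highest mean over the 10 arrays stood for it.

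The mice were male, of the inbred strain DBA/1J, bought at 5 weeks of age and labelled as 8 weeks old. All 10 had collagen antibody-induced arthritis: 1 mg of antibody to type II collagen was injected on day 8 and 25 µg of bacterial lipopolysaccharide (LPS) on day 11, and the mice were killed on day 12. As vehicle, 5 mice received corn oil by mouth, and the other 5, the maslinic acid group, received 200 mg per kg of maslinic acid, a triterpene of olives, suspended in corn oil, every day. The design text says that these 5 mice per group were picked out of larger groups and gives no criterion; untreated mice are described too and were not analysed here. The synovium came from the left hind leg, and the protocol says that muscle and skin around it were cleaned off. Each mouse gave 1 Affymetrix array, and mice are named here by group and by the replicate number in their titles.

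In a sarcomere, the contractile unit of striated muscle, myosin heads pull on thin filaments of actin. Calcium released from the sarcoplasmic reticulum binds troponin C and, through troponin I, troponin T and tropomyosin, frees the actin for myosin. Fast and slow fibres build the same machine from different isoforms: a fast fibre carries the myosin heavy chains of Myh4, Myh1 or Myh2 and the fast troponins, a slow fibre the heavy chain of Myh7 and the slow troponins. Synovium itself has no sarcomeres, while the muscles that move the joint lie directly beside it.

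The deposited value is treated as a score, because no source used here gives its scale. The middle probe set stood at 6.74, and 38 of the 44 genes had a mean above that. The highest probe set stands for each gene, so most genes lie above the middle. Of all 18128 genes, 10982 had a mean at or above the median of the probe set means. Values of different probe sets are not compared in height, since probe sets differ in sensitivity. Differences between mice were very small on this scale: 93.5% of probe sets spanned less than 0.001 over the 10 arrays, and the SD over mice ran from 1.07e-06 for Myh3 to 0.249 for Myh1 among the 44 genes. Levels per mouse are therefore given as the number of SDs from the gene's mean over the 10 mice, and differences between groups as Hedges' g, the mean of the maslinic acid mice less that of the vehicle mice, divided by the SD inside groups. Of 11 markers of synovial fibroblasts, 10 had a mean above the middle of the array, Prg4, the lubricin of synovial lining, at 11.55, while Has2, which makes hyaluronan and was named after its value was seen, stood below it at 6.34. In bulk RNA, fewer muscle fibres in a sample and less RNA per fibre cannot be told apart.

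No muscle gene differed between maslinic acid and vehicle at an adjusted p under 0.05 (limma, Benjamini-Hochberg over 39993 probe sets), where 0% of all probe sets passed. What the 44 genes showed instead was a difference between single mice. Levels in SDs are scaled by each gene's own spread over the same 10 mice, so they do not show how large this difference was. In the score it was small, with a span over the mice of 0.000238 for Acta1 and 0.656 for Myh1. Vehicle mouse 2 was the lowest of the 10 mice in 32 of the 44 genes, among them 12 of 14 fast fibre genes, both developmental myosins, 10 of 12 genes of the shared sarcomere and all 3 of excitation-contraction coupling. The share of all genes that were lowest in that mouse was not counted, so this is not read as particular to muscle genes. Maslinic acid mouse 2 was the highest in 6 of 8 slow fibre genes, and maslinic acid mouse 4 in 6 of 14 fast fibre genes. A further pattern, carried by Myh1, Myh2 and myoglobin, had vehicle mice 1 and 5 and maslinic acid mouse 3 at the bottom.

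**Figure D1:**
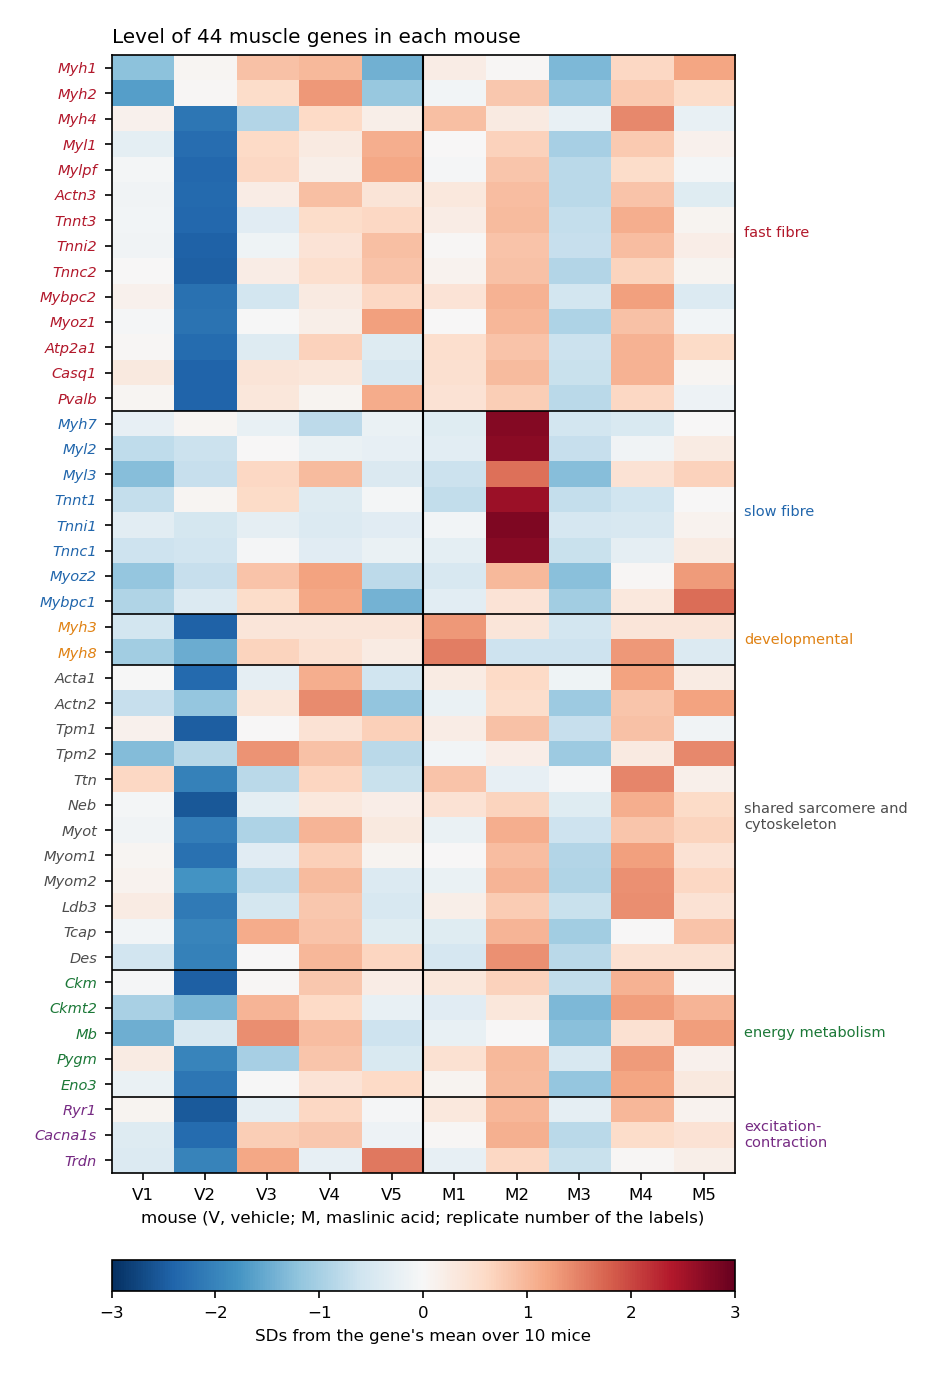
Level of each of the 44 muscle genes (rows, coloured by class) in each of the 10 mice (columns), in SDs from the gene's own mean over the 10 mice, blue for low and red for high. The column of vehicle mouse 2 is dark blue through the fast fibre genes, where its mean was -1.99 SD, and the column of maslinic acid mouse 2 is dark red in the slow fibre genes, where its mean was 2.07 SD.

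The myosin heavy chains, the motors of the thick filament, fell into 3 patterns over the mice. In the mouse genome (RefSeq, build GRCm38.p6) the embryonic Myh3, the fast Myh2, Myh1 and Myh4 and the perinatal Myh8 stand in this order on the plus strand of chromosome 11, and the slow Myh7 lies on the minus strand of chromosome 14. The 250 bases before the annotated start are shown for Myh2 and Myh1, which varied together, for their neighbour Myh4, which varied with the bulk of the fast genes, and for Myh7, which varied with neither. They lie at chr11:67170777-67171026, chr11:67199852-67200101, chr11:67237562-67237811 and, for the first of 2 starts, chr14:54994627-54994876. Capitals mark matches, on either strand, to the E-box CANNTG (the site of myogenic factors such as MyoD), to its form CAGCTG, which the E-box includes, to the MEF2 box or to the CArG box of serum response factor.
Myh2: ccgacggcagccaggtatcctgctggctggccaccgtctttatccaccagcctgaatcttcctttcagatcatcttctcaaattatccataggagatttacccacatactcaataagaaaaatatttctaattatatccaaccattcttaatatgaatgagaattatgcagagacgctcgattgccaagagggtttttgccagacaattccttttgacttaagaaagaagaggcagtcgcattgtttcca
Myh1: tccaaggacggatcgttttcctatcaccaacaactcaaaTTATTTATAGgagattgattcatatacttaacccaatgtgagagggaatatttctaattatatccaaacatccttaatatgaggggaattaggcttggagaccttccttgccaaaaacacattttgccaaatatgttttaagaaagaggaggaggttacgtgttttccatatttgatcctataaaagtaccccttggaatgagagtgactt
Myh4: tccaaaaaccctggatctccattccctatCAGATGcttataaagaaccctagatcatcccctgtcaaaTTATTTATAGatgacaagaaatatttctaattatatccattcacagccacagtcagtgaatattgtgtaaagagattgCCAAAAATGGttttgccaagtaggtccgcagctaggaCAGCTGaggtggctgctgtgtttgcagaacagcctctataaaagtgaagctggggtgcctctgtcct
Myh7: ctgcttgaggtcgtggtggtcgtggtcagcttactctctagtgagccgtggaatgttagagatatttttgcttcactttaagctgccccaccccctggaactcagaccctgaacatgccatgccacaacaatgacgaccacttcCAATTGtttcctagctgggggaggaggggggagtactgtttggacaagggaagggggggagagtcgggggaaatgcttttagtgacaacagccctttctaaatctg
The Myh4 window held 1 match of the MEF2 box, 1 of the CArG box and 2 of the E-box, 1 of them CAGCTG. Myh1 held a MEF2 match alone, Myh7 an E-box alone, and Myh2 none of the 4. These are matches of letters, which do not show that a factor binds there. Windows were found for 35 of the 44 genes (42 windows, some genes having several starts; Actn3, Tnnt3, Tnni2, Myoz1, Neb, Myot, Myom2, Tcap and Trdn were not matched). CAGCTG was present in 19 of these 42 (45.2%), against 13% of all 32851 windows. An E-box of any form was present in 36 (85.7%), against 66.2% of all windows. The MEF2 box and the CArG box were each present in 6 (14.3%), against 2.92% and 1.47% of all windows. Windows of 1 gene can overlap and hold the same site. Counted by gene, CAGCTG was present in 17 of the 35, an E-box in 31, the MEF2 box in 6 and the CArG box in 5.

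Myh4 encodes the heavy chain of the fastest fibres, type 2B. It stood at 0.12, -2.17, -0.89, 0.59 and 0.17 SD in vehicle mice 1 to 5 and at 0.91, 0.27, -0.23, 1.44 and -0.22 SD in maslinic acid mice 1 to 5 (mean level 12.60). Vehicle mouse 2 was far below the others, maslinic acid mouse 4 was highest, and the groups overlapped. The difference for Myh4 was g = 0.84 (95% interval -0.37 to 2.01), with an exact permutation p of 0.198 and a limma adjusted p of 0.657.

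Myh1, the heavy chain of type 2X fibres, stood at -1.23, 0.06, 0.88, 0.98 and -1.44 SD in the 5 vehicle mice and at 0.23, 0.03, -1.34, 0.62 and 1.19 SD in the 5 maslinic acid mice (mean level 9.25). Here the low mice were vehicle 1, vehicle 5 and maslinic acid 3, while vehicle mouse 2 stood at the mean. Myh1 had g = 0.26 (95% interval -0.88 to 1.38, exact permutation p = 0.675, limma adjusted p = 0.903). This probe set had the largest SD of the 44, and its level ran from 8.90 in vehicle mouse 5 to 9.55 in maslinic acid mouse 5. Myh2, the heavy chain of type 2A fibres, stood at -1.66, 0.03, 0.55, 1.30 and -1.14 SD with vehicle and at -0.09, 0.81, -1.15, 0.79 and 0.56 SD with maslinic acid (mean level 6.87). Its 3 lowest mice were the same 3 as for Myh1. The difference for Myh2 was g = 0.32 (95% interval -0.82 to 1.44), with an exact permutation p of 0.571 and a limma adjusted p of 0.872. The coding sequences of Myh1, Myh2 and Myh4 are near-identical over long stretches, and the probe set of Myh1 is of a class (named x_at) whose probes may bind related transcripts, so signal may be shared between them.

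Myh7, the heavy chain of slow fibres and of the heart, stood at -0.24, 0.05, -0.22, -0.78 and -0.21 SD with vehicle and at -0.36, 2.76, -0.56, -0.45 and 0.01 SD with maslinic acid (mean level 6.57). Maslinic acid mouse 2 stood alone, and the other 9 lay between -0.78 and 0.05 SD. Myh7 had g = 0.50 (95% interval -0.66 to 1.63, exact permutation p = 0.627, limma adjusted p = 0.796). Without maslinic acid mouse 2, g of Myh7 was -0.20.

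The developmental myosins are those of muscle before birth and of regenerating fibres. Myh3, the embryonic chain, stood at -0.56, -2.42, 0.37, 0.37 and 0.37 SD with vehicle and at 1.30, 0.37, -0.56, 0.37 and 0.37 SD with maslinic acid (mean level 5.77). The steps between its values are the rounding of the file to 6 decimals, its SD being 1.07e-06, so that most mice share a value. The difference for Myh3 was g = 0.69 (95% interval -0.50 to 1.84), with an exact permutation p of 0.484 and a limma adjusted p of 0.752. Myh8, the perinatal chain, stood at -1.05, -1.48, 0.67, 0.45 and 0.24 SD with vehicle and at 1.53, -0.62, -0.62, 1.31 and -0.41 SD with maslinic acid (mean level 6.01). In both genes vehicle mouse 2 was lowest and maslinic acid mouse 1 highest. Myh8 had g = 0.42 (95% interval -0.73 to 1.54, exact permutation p = 0.524, limma adjusted p = 0.83). With array medians set equal, g was -0.38 for Myh3 and -0.37 for Myh8, so neither has a settled direction. Both were below the middle of the array.

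**Figure D2:**
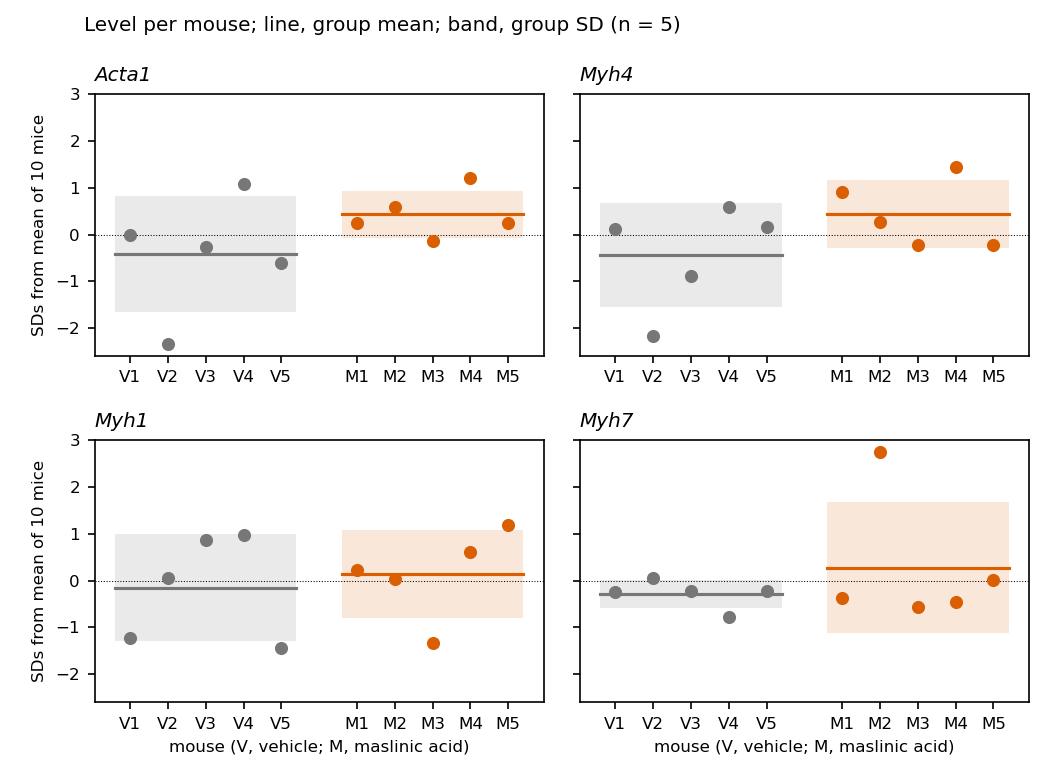
Level of Acta1, Myh4, Myh1 and Myh7 in each mouse, in SDs from the gene's mean over the 10 mice (points, grey for vehicle and orange for maslinic acid), with the group mean (line) and the group SD (band, n = 5). Vehicle mouse 2 is lowest in Acta1 (-2.34) and Myh4 (-2.17) but not in Myh1 (0.06), and maslinic acid mouse 2 stands alone in Myh7 (2.76).

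Troponin, the calcium switch of the thin filament, has a fast and a slow gene for each of its 3 subunits, and the 2 sets separated by mouse. Tnnc2, the fast calcium-binding subunit, stood at 0.01, -2.45, 0.23, 0.51 and 0.85 SD with vehicle and at 0.10, 0.88, -0.87, 0.66 and 0.08 SD with maslinic acid (mean level 12.87). Tnni2, the fast inhibitory subunit, stood at -0.11, -2.43, -0.12, 0.41 and 0.91 SD with vehicle and at 0.04, 0.85, -0.69, 0.92 and 0.20 SD with maslinic acid (mean level 12.56). Tnnt3, the fast tropomyosin-binding subunit, stood at -0.09, -2.36, -0.33, 0.54 and 0.61 SD with vehicle and at 0.22, 0.95, -0.72, 1.09 and 0.09 SD with maslinic acid (mean level 12.18). All 3 were lowest in vehicle mouse 2 by more than 1 SD, with the 9 other mice between -0.87 and 1.09 SD. The groups overlapped in each. The difference for Tnnc2 was g = 0.29 (95% interval -0.84 to 1.41), with an exact permutation p of 0.69 and a limma adjusted p of 0.887. Tnni2 had g = 0.47 (95% interval -0.69 to 1.60, exact permutation p = 0.516, limma adjusted p = 0.807). The difference for Tnnt3 was g = 0.59 (95% interval -0.58 to 1.73), with an exact permutation p of 0.365 and a limma adjusted p of 0.754. Without vehicle mouse 2, g was -0.36 for Tnnc2 and -0.01 for Tnni2.

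The slow troponins did not share that low mouse. Tnnc1, the slow and cardiac calcium-binding subunit, stood at -0.62, -0.58, -0.04, -0.33 and -0.19 SD with vehicle and at -0.30, 2.74, -0.67, -0.26 and 0.24 SD with maslinic acid (mean level 6.35). Tnni1, the slow inhibitory subunit, stood at -0.31, -0.52, -0.26, -0.41 and -0.34 SD with vehicle and at -0.09, 2.79, -0.50, -0.47 and 0.10 SD with maslinic acid (mean level 6.31). Tnnt1, the slow tropomyosin-binding subunit, stood at -0.71, 0.07, 0.57, -0.39 and -0.07 SD with vehicle and at -0.73, 2.57, -0.72, -0.60 and 0.02 SD with maslinic acid (mean level 7.11). In all 3, maslinic acid mouse 2 was above the other 9 mice by 2 SD or more. Tnnc1 had g = 0.64 (95% interval -0.54 to 1.79, exact permutation p = 0.325, limma adjusted p = 0.732). The difference for Tnni1 was g = 0.68 (95% interval -0.51 to 1.83), with an exact permutation p of 0.19 and a limma adjusted p of 0.714. Tnnt1 had g = 0.18 (95% interval -0.94 to 1.30, exact permutation p = 0.913, limma adjusted p = 0.929). Without maslinic acid mouse 2, g of Tnnt1 was -0.82. The slow regulatory light chain Myl2 had the same high mouse at 2.70 SD, and the slow essential light chain Myl3 had it at 1.65 SD. Mybpc1, slow myosin-binding protein C, and Myoz2, the slow and cardiac Z-disc protein calsarcin 1, were instead highest in maslinic acid mouse 5, at 1.68 and 1.28 SD. Myl2, Tnni1 and Tnnc1 were below the middle of the array in mean level, as was Myh7. The 6 markers of heart muscle averaged 0.23 SD in that mouse, against 2.07 SD for the 8 slow genes. They ran from -1.30 SD for Mybpc3 to 1.94 SD for the cardiac troponin Tnni3, both named after their values were seen.

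Apart from Myh1 and Myh2, the other fast fibre genes had the same low mouse as the fast troponins. Atp2a1 encodes SERCA1, the pump that returns calcium to the sarcoplasmic reticulum of fast fibres, and stood at 0.03, -2.32, -0.39, 0.70 and -0.38 SD with vehicle and at 0.51, 0.86, -0.64, 1.04 and 0.58 SD with maslinic acid (mean level 11.53). Vehicle mouse 2 was lowest, and the other 4 vehicle mice lay within the range of the maslinic acid mice. The difference for Atp2a1 was g = 0.92 (95% interval -0.31 to 2.10), with an exact permutation p of 0.135 and a limma adjusted p of 0.635. Casq1, the calcium store of the reticulum, Pvalb, the calcium buffer parvalbumin, the light chains Myl1 and Mylpf, the Z-disc genes Actn3 and Myoz1, and the fast myosin-binding protein Mybpc2 all had vehicle mouse 2 lowest, between -2.41 and -2.21 SD. Over the 14 fast genes, the class mean was -1.99 SD in vehicle mouse 2 and lay between -0.80 and 0.89 SD in the 9 others.

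Acta1, skeletal alpha-actin of the thin filament, is made by fast and slow fibres alike. Its level was 13.263147, 13.262990, 13.263130, 13.263220 and 13.263107 in vehicle mice 1 to 5, and 13.263164, 13.263187, 13.263138, 13.263228 and 13.263164 in maslinic acid mice 1 to 5. In SDs, vehicle mouse 2 stood at -2.34, maslinic acid mouse 4 at 1.20 and vehicle mouse 4 at 1.08, and the groups overlapped. Acta1 had g = 0.81 (95% interval -0.39 to 1.98, exact permutation p = 0.19, limma adjusted p = 0.664). With arrays centred on their medians, g of Acta1 was 0.20. Neb encodes nebulin, the ruler of the thin filament, and stood at -0.06, -2.55, -0.29, 0.32 and 0.20 SD with vehicle and at 0.44, 0.67, -0.37, 1.08 and 0.57 SD with maslinic acid (mean level 9.95). It had the lowest p of the 44 genes. The difference for Neb was g = 0.94 (95% interval -0.29 to 2.12), with an exact permutation p of 0.0873 and a limma adjusted p of 0.628. Des, the intermediate filament desmin, which smooth muscle also makes, stood at -0.57, -2.02, -0.00, 0.99 and 0.64 SD with vehicle and at -0.51, 1.36, -0.81, 0.46 and 0.46 SD with maslinic acid (mean level 9.91). Its high mouse was maslinic acid 2, its low mouse vehicle 2. Des had g = 0.33 (95% interval -0.81 to 1.45, exact permutation p = 0.603, limma adjusted p = 0.864). Without vehicle mouse 2, g of Des was -0.08. Titin (Ttn), the M-band genes Myom1 and Myom2, the Z-disc genes Ldb3, Myot and Tcap, and tropomyosin 1 were also lowest in vehicle mouse 2, between -2.48 and -1.80 SD. Actn2 and Tpm2 were lowest in vehicle mice 5 and 1 and stood at -1.17 and -0.84 SD in vehicle mouse 2.

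Among the genes of energy metabolism, Ckm, the muscle creatine kinase that regenerates ATP, stood at -0.04, -2.45, 0.04, 0.82 and 0.23 SD with vehicle and at 0.35, 0.70, -0.75, 1.05 and 0.04 SD with maslinic acid (mean level 12.25). The difference for Ckm was g = 0.50 (95% interval -0.66 to 1.63), with an exact permutation p of 0.476 and a limma adjusted p of 0.796. Pygm, the glycogen phosphorylase of muscle, stood at 0.25, -1.99, -1.0, 0.84 and -0.46 SD with vehicle and at 0.45, 0.98, -0.47, 1.28 and 0.13 SD with maslinic acid (mean level 10.11). Both had vehicle mouse 2 lowest and maslinic acid mouse 4 highest. Pygm had g = 0.93 (95% interval -0.30 to 2.11, exact permutation p = 0.143, limma adjusted p = 0.634). Mb, the oxygen store myoglobin, followed Myh1 instead: vehicle mouse 1 stood at -1.47, maslinic acid mouse 3 at -1.26 and vehicle mouse 2 at -0.47 SD. In excitation-contraction coupling, the release channel Ryr1 and the voltage sensor Cacna1s stood at -2.52 and -2.31 SD in vehicle mouse 2. Trdn, the triad anchor triadin, was the single gene of the 44 with a lower mean under maslinic acid. It stood at -0.41, -2.0, 1.15, -0.25 and 1.59 SD with vehicle and at -0.25, 0.63, -0.67, 0.03 and 0.17 SD with maslinic acid (mean level 9.85), with the highest and the lowest mouse both in the vehicle group. The difference for Trdn was g = -0.03 (95% interval -1.15 to 1.09), with an exact permutation p of 0.96 and a limma adjusted p of 1. Its sign depends on single mice: without vehicle mouse 5, g was 0.34.

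Set over the groups, 43 of the 44 genes had a higher mean with maslinic acid, while 47.9% of all 18128 genes did. Some marker lists of other tissues leaned to 1 side as well. A higher mean with maslinic acid was found in 5 of 5 bone markers (median g 1.18) and 5 of 5 adipocyte markers (0.76). It was found in 6 of 6 cartilage markers (0.62), 9 of 11 synovial fibroblast markers (0.56) and 0 of 5 neutrophil markers (-0.93). Among the neutrophil markers, S100a8 and S100a9, named after their values were seen, had 2 distinct values each at the 6 decimals of the file. The list median is the g of S100a9, so rounding limits it. Other lists were mixed: 5 of 9 smooth muscle markers (0.43), 3 of 7 macrophage markers (-0.02) and 3 of 7 keratinocyte markers (0.00) were higher. So were 2 of 6 cardiac markers (-0.41) and 1 of 3 nerve markers (-0.49). In limma, 0 genes of each of these lists passed the adjusted threshold, with 0 to 2 per list at an unadjusted p under 0.05. For the 44 muscle genes the count was 41 with each array centred on its median (the median g of all genes then being -0.39). After quantile normalization it was 34 of the 36 that still varied (-0.27). Of the 6743 genes that, like 41 of the 44, had 10 distinct values, 60.2% had a higher mean with maslinic acid in the deposited values. The median g was 0.46 over the 44 genes, 0.00 over all genes and 0.23 over those with 10 distinct values. By class it was 0.32 for fast fibre genes (0.16 to 0.92), 0.43 for slow fibre genes (0.18 to 0.68), 0.55 for the 2 developmental myosins, 0.64 for the shared sarcomere (0.15 to 0.94), 0.48 for energy metabolism (0.08 to 0.93) and 0.45 for excitation-contraction coupling (-0.03 to 0.82). None of these differences passed a test. 0 of the 44 had an unadjusted p under 0.05 in limma, against 8.83% of all genes, 0 did in the exact Wilcoxon test, and 0 had groups that did not overlap, against 1.38% of all genes. Adjusted p ran from 0.628 to 1, and every 95% interval of g included 0.

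The 44 genes share their mice and so do not count as separate evidence of a direction. Without vehicle mouse 2, 32 of 44 had a higher mean with maslinic acid, and the median g was 0.23. Without both mice numbered 2, it was 25 of 44, with a median g of 0.08, and the median was -0.13 for fast fibre genes and 0.10 for slow ones. The 2 groups accounted for a median of 7.58% of a gene's variance over the 10 mice (0.0352% for Trdn to 25.3% for Neb), the rest lying between mice of 1 group. The vehicle group had the larger SD in 36 of the 44. Neither value was computed over all genes, so neither is read as particular to muscle genes. Every interval of g includes 1 as well as 0.

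**Figure D3:**
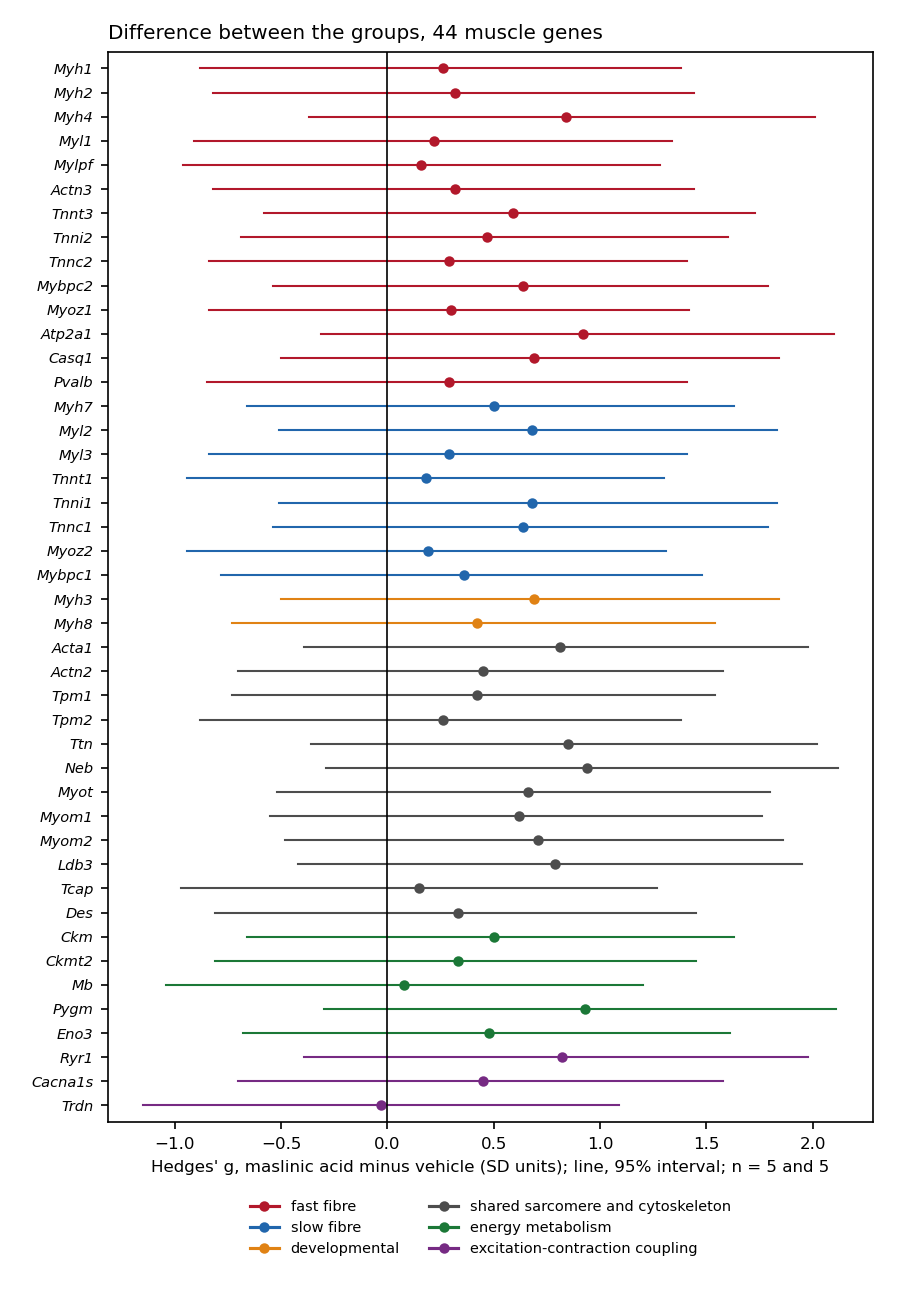
Hedges' g of each of the 44 muscle genes (maslinic acid minus vehicle, in SDs within groups; points) with its 95% interval (lines), coloured by class, n = 5 mice per group. All points but Trdn (-0.03) lie right of 0, up to 0.94 for Neb, and every interval includes 0.

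Which genes varied together was measured as Pearson's r and Spearman's rho with Acta1 over the 10 mice, with 100000 permutations and Benjamini-Hochberg adjustment over 129 correlations (with Acta1, Myh1 and Myh7, of which the last 2 were added after seeing the data). Of 43 genes, 19 had r of 0.8 or more, against 1.09% of all genes (2.21% of those with 10 distinct values). With arrays centred on their medians it was 6 of 43, and without vehicle mouse 2 it was 5. After adjustment 18 passed by Pearson's r and 8 by Spearman's rho. The highest were Ldb3, an organiser of the Z-disc (r = 0.96, rho = 0.93, permutation p = 1e-05 and 0.00025, adjusted p = 0.00129 and 0.00722), and Atp2a1 (r = 0.96, rho = 0.94, permutation p = 9e-05 and 0.00017, adjusted p = 0.00284 and 0.00722). For Ldb3, 1e-05 is the smallest p that the permutations can give.

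The classes differed in how they followed Acta1. The median r was 0.81 for fast genes, 0.87 for the shared sarcomere, 0.82 for energy metabolism, 0.86 for excitation-contraction coupling and 0.67 for the developmental myosins, but 0.30 for slow genes, with Tnnt1 at 0.00 and Myh7 at 0.03. Within the fast class, Myh4 had r = 0.88 (rho = 0.80), while Myh1 had 0.32 (rho = 0.47) and Myh2 0.40 (rho = 0.64). Most of this rests on the 2 mice farthest from the median of Acta1, vehicle 2 and maslinic acid 4. Without them the median r over all 43 fell from 0.76 to 0.47 and 4 genes kept r of 0.8 or more: Ldb3 (0.88), Atp2a1 (0.84), Pygm (0.84) and Myom2 (0.82). The light chains Myl1 (-0.06) and Mylpf (-0.16), parvalbumin (-0.15) and Myoz1 (-0.02) then no longer followed Acta1. With the group means removed, the median r over all 43 was 0.75, and that of the slow genes was 0.16 in place of 0.30.

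**Figure D4:**
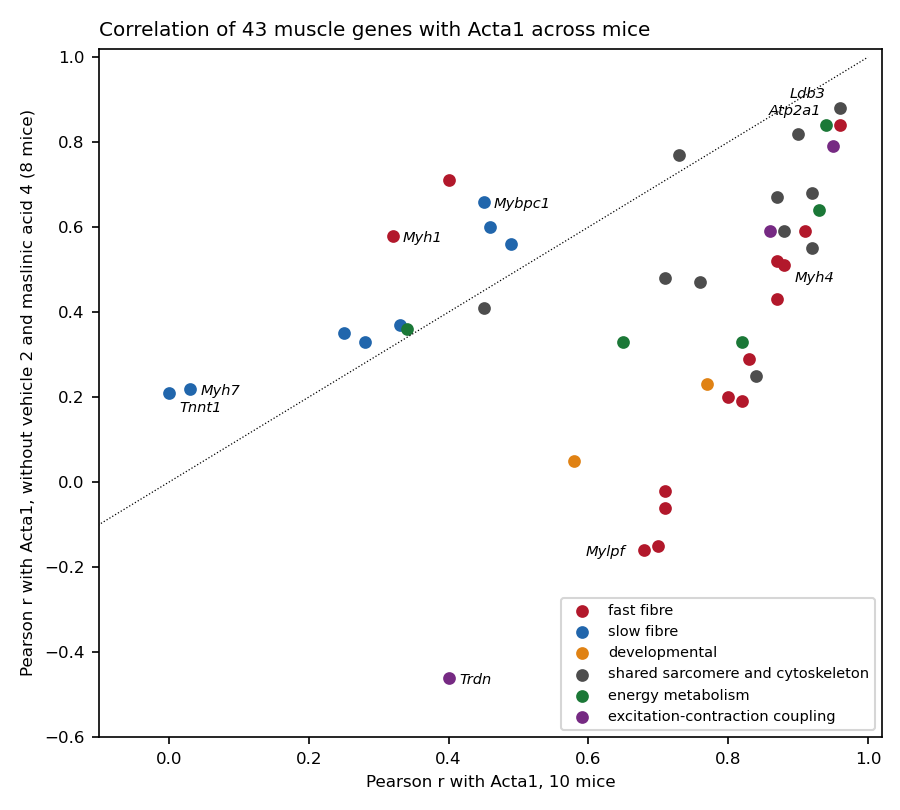
Pearson's r of each of 43 muscle genes with Acta1 over the 10 mice (x axis) and without vehicle mouse 2 and maslinic acid mouse 4, the 2 mice farthest from the median of Acta1 (y axis, 8 mice), coloured by class, with a dotted line of equality. Fast genes drop from a median of 0.81 to 0.36, while the median of the slow genes at the left changes little (0.30 and 0.36). Single slow genes move more, such as Tnnt1 from 0.00 to 0.21 and Mybpc1 from 0.45 to 0.66.

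With Myh1 as the reference, 6 genes had r of 0.8 or more: Myh2 (0.91), Mybpc1 (0.92), myoglobin (0.92), Tpm2 (0.90), Myoz2 (0.85) and Actn2 (0.84). Mybpc1 and Myoz2 are listed here with the slow fibre genes, Myh2 with the fast ones, Tpm2 and Actn2 with the shared sarcomere and myoglobin with energy metabolism. Mybpc1 had the smallest permutation p (2e-05, adjusted 0.00129). Since Myh1 was made a reference after seeing these data, this p is not an independent test of the grouping. Without the 2 mice farthest from the median of Myh1 (maslinic acid 3 and vehicle 5), 5 of the 6 kept r of 0.8 or more, Actn2 being at 0.74. Fast genes as a class had a median r of 0.12 with Myh1, and slow genes 0.21, with Myh7 at 0.01. The 6 genes and Myh1 also had larger SDs than most of the set, from 0.00526 (Actn2) to 0.249 (Myh1), while the median SD over all probe sets was 6.68e-06. The part of this spread in the grouping was not tested.

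With Myh7 as the reference, the slow genes had a median r of 0.93, and Tnni1 (0.97), Tnnc1 (0.95), Myl2 (0.93) and Tnnt1 (0.93) were at 0.8 or more. By rank the relation was looser, rho being 0.42, 0.58, 0.38 and 0.75. Without maslinic acid mouse 2 and vehicle mouse 4, the median r of the slow genes was 0.38 and none reached 0.8. Without maslinic acid mouse 2 alone it was 0.10, again with none at 0.8, while without any other single mouse it was 0.92 to 0.94 with 4 of 7 at 0.8 or more, a comparison added after seeing the data. Between classes, pairs of fast genes had a median r of 0.87 (0.63 without vehicle mouse 2), pairs of slow genes 0.75 (0.52 without maslinic acid mouse 2) and pairs of a fast and a slow gene 0.37.

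Other probe sets of the same genes gave a check on these patterns. 14 genes had more than 1, and 23 of the 33 other probe sets followed the main one at r of 0.8 or more. The other Myh1 probe set of similar level followed at r = 1.00. The third of Myh1, below the middle of the array at a mean of 6.22, had r = 0.05 and g = -0.98, opposite in sign to the main one. Under 0.3 were 6, 1 each of Myh1, Ttn, Myom2 and Des and 2 of Tpm1. One of Tpm1 had r = -0.51 at a mean of 9.84, a gene that is also used outside skeletal muscle. The sign of g was that of the main probe set in 26 of 33.

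In muscle genes outside the 44, r with Acta1 was 0.8 or more in 5 of 12 genes of the triad and sarcoplasmic reticulum, 5 of 12 of muscle metabolism, 2 of 21 of the sarcomere and Z-disc, 2 of 11 of the membrane and neuromuscular junction and 1 of 13 of the transcription factors and satellite cells, where 1.09% of all genes had it. Of the 2 genes of lowest p in the triad list, Jph1, junctophilin of the triad, was at 0.81 and Asph at -0.06. Of the 2 in the metabolism list, phosphofructokinase (Pfkm) was at 0.95 and Ppp1r3a at -0.57. In each of 5 further muscle lists, vehicle mouse 2 had the lowest mean, from -1.60 SD (metabolism) to -0.77 SD (transcription factors and satellite cells), and in limma 0 genes of each list passed the adjusted threshold, with 2 of 11 membrane genes and 1 in each other list at an unadjusted p under 0.05, against 8.83% of all genes. The mean was higher with maslinic acid in 9 of 12 triad genes (median g 0.55), 9 of 13 transcription factors and satellite cell genes (0.34), 8 of 12 metabolism genes (0.18), 11 of 21 sarcomere and Z-disc genes (0.03) and 6 of 11 membrane genes (0.00). Dmd, dystrophin of the fibre membrane, had groups that did not overlap (g = 1.99, 95% interval 0.48 to 3.43, exact permutation p = 0.00794 with n = 5 and 5, limma adjusted p = 0.467), and it was chosen by its low p from a list of 11. Clcn1, the chloride channel of the fibre membrane in the same list, had the opposite sign (g = -1.69, exact permutation p = 0.0238 with n = 5 and 5, limma adjusted p = 0.488). Ppp1r3a, the muscle subunit that directs a phosphatase to glycogen, also had groups that did not overlap, with the lower values under maslinic acid (g = -2.14, 95% interval -3.62 to -0.58, exact permutation p = 0.00794 with n = 5 and 5, limma adjusted p = 0.464). The myosin gene Myh7b had g = -1.72 (exact permutation p = 0.0238 with n = 5 and 5, limma adjusted p = 0.488). Some mice shared a value at the 6 decimals of the file: Ppp1r3a and Myh7b had 7 distinct values each and Clcn1 had 8. Rounding therefore limits their g. Ppp1r3a (mean level 6.15) and Myh7b (6.12) were also below the middle of the array.

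Markers of other tissues at the joint were read in the same mice. In vehicle mouse 2, the 5 adipocyte markers averaged -1.48 SD, with Fabp4, a fatty acid carrier of fat cells, at -1.48 as well, and this was their lowest mouse. The 11 synovial fibroblast markers averaged 0.31 SD there, the 7 macrophage markers 0.45 SD, the 5 neutrophil markers 0.69 SD, and the 9 smooth muscle markers -0.41 SD. In maslinic acid mouse 2, the adipocyte markers averaged 0.82 SD, the fibroblast markers -0.22 SD and the cartilage markers -1.29 SD, the lowest value of either group apart from -1.40 in vehicle mouse 5. The part of these other tissues in the muscle values was not tested. Whether dissection left more muscle on some joints than on others was not tested either, since the labels give no record of it per mouse.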

How the data were processed

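RNA of the synovium of 10 mice was hybridised to Affymetrix 3' arrays, 1 per mouse, and group and replicate number come from the titles. The authors deposited 1 table of 39993 probe sets with 6 decimals, whose values are treated as a score because its scale, background correction and normalization are not given in the sources at hand. R 3.2.1 was named, per the submitters' processing notes. Such processing can shrink differences between arrays, so sizes are given in SDs. All columns with a sample were used (0 left out), and no batch is given in the labels.

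The platform annotation named the probe sets: 34202 name 1 gene, 931 several and 4860 none. All 44 genes matched the RefSeq gene table by Entrez identifier. Protein sequences were not used here. The genes, classes and lists were chosen with earlier results of these data known.

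Maslinic acid was compared with vehicle in limma 3.58.1 (lmFit and eBayes, two-sided, R 4.3.3) over all probe sets, with no covariate, no filter and Benjamini-Hochberg adjustment at 0.05. The prior degrees of freedom were 0.503, so variances were hardly shared. Single genes were tested over all 252 assignments of 10 arrays to 5 and 5 (exact, two-sided). Hedges' g has a 95% noncentral interval. Each mouse is given for the myosin heavy chains, the troponins, Acta1, Ckm, Atp2a1, Des and, since no gene passed, the 3 genes of lowest p in each direction, of which 1 had a lower mean. From other lists, the 2 genes of lowest p and, for markers, the highest level could be named. The scripts (Python 3.11.15, pandas 2.3.3, numpy 2.4.6, scipy 1.17.1, matplotlib 3.10.9) were tested on simulated data. No 2 arrays were identical. The labels call the samples biological replicates. The labels name no pairing of mice by replicate number. Deviations from the group means of mice with the same number correlated between -0.39 and 0.35. Mice of different numbers were not compared, so these values cannot settle whether the numbers pair mice.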

Additional observations from a re-analysis of the deposited data

Results flagged for a closer look

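In each group of 5 mice, the gap of the highest or lowest mouse to its neighbour was divided by the group's range. Of 88 such checks (44 genes in 2 groups), 11 lay above the critical value for 5 samples, where chance gives about 1 in 20. The genes share their mice, so the 11 are not separate events. In 6 of them, vehicle mouse 2 was far below the 4 other vehicle mice. This share of the range was 0.744 for the fast troponin Tnnc2, 0.774 for the tropomyosin Tpm1 and 0.788 for nebulin (Neb). It was 0.739 for creatine kinase (Ckm), 0.711 for muscle enolase (Eno3) and 0.712 for the calcium release channel Ryr1. In the 5 others, all slow fibre genes, maslinic acid mouse 2 was far above the 4 other maslinic acid mice. The share was 0.828 for Myh7, 0.728 for Myl2, 0.772 for Tnnt1, 0.818 for Tnni1 and 0.733 for Tnnc1.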

How the results depend on the processing

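The count of genes at an adjusted p under 0.05 was 0 under every alternative run. At an unadjusted p under 0.05 it was 0 in the main test, 1 with the replicate block (Ttn), and 0 to 2 when 1 mouse was left out, the 2 being Acta1 and Pygm without vehicle mouse 4. Leaving out 1 mouse gave 32 to 44 genes with a higher mean under maslinic acid, and 25 of 44 without both mice numbered 2, an alternative added after seeing the data. The median g of a class moved by less than 1 SD throughout, but its direction did not always hold. That of the developmental myosins went from 0.55 to -0.37 with arrays centred on their medians. That of excitation-contraction coupling went from 0.45 to 0.00081 without vehicle mouse 2. The median of the fast fibre genes was below 0 without both mice numbered 2. Genes at r of 0.8 or more with Acta1 were 19 in the main setting, 6 with arrays centred on their medians, 6 without both mice numbered 2, and 5 to 26 when 1 mouse was left out, the 5 being without vehicle mouse 2. After quantile normalization Acta1 and 7 other genes held 1 value on all arrays, so that no correlation with Acta1 could be had, and g of Myh3 was 0. In the same setting g went from 0.84 to 0.30 for Myh4 and from 0.92 to 0.18 for Atp2a1. It stayed near its main value for Neb (0.94 and 0.92) and Pygm (0.93 and 0.97). With arrays centred on their medians, g of Acta1 went from 0.81 to 0.20.

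Several genes changed the sign of g. With arrays centred, g was -0.38 for Myh3 and -0.37 for Myh8. With 1 mouse left out in turn, it ran from -0.02 (without vehicle mouse 5) to 0.64 for Myh1, from -0.00023 (without vehicle mouse 1) to 0.72 for Myh2, from -0.01 to 0.76 for Tnni2, from -0.36 to 0.52 for Tnnc2 and from -0.08 to 0.61 for Des. The lowest value of the last 3 came without vehicle mouse 2. It ran from -0.20 to 0.67 for Myh7 and from -0.82 to 0.35 for Tnnt1, both lowest without maslinic acid mouse 2. For Trdn it ran from -0.64 without vehicle mouse 2 to 0.34 without vehicle mouse 5. Without both mice numbered 2, g was -0.23 for Tnni2, -0.67 for Tnnt1, -0.02 for Tnnt3, -0.69 for Tnnc2, -0.13 for Ckm and -0.47 for Des. For Trdn, g was 0.52 with array weights and 1.10 without vehicle mice 3 and 5. The cause was not tested. No other alternative (a filter at the median level, trended and robust eBayes, other choices of probe set, 1 probe set per gene) changed a sign or a call. The number of arrays, the unknown scale and, for Myh3, the rounding of the file limit the precision.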
